A study of Mus musculus with 144 samples.

Results

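The proteasome genes described here are those whose mouse symbol starts with Psma, Psmb, Psmc, Psmd or Psme followed by a digit, pseudogenes left out, on arrays of blood leukocytes and spleen cells taken after burn injury, trauma-hemorrhage or injection of bacterial lipopolysaccharide (LPS). The rule found 91 probe sets of 44 genes, among 45037 probe sets that were no controls and 18193 genes. Of the 5 genes of the immunoproteasome and its activator, Psmb8, Psmb9, Psmb10 and Psme1 have a probe set of their own. The only probe set of Psme2 is annotated to Psme2 and Psme2b together, so no value is given for it. The rule also takes in Psmc3ip and Psme3ip1, named for partners of proteasome genes and no subunits themselves. The rule reads gene symbols and no measured value, but the members were chosen with earlier results of these data known.

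The study holds 144 arrays (Affymetrix Mouse Genome 430 2.0) in 36 groups of 4, each array from 1 mouse per the series description. Mice with a burn and mice with trauma-hemorrhage were each compared with sham mice of the same model at 2 hours, 1 day, 3 days and 7 days, in blood leukocytes and in spleen cells. LPS-treated mice, labelled C57BL/6J, were compared with their sham mice in blood leukocytes at 2 hours and 1 day. The strain, sex and age of the burn and trauma-hemorrhage mice, the burned area, the bleeding protocol and the LPS dose are not given in the sources used here. Blood and spleen cells of the injury models went through lysis of red blood cells before RNA was extracted, per the labels.

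The proteasome is the barrel-shaped protease that degrades proteins tagged with ubiquitin. Its 20S core holds rings of alpha subunits (Psma genes) around rings of beta subunits (Psmb genes), and the catalytic beta subunits of most cells are encoded by Psmb5, Psmb6 and Psmb7. The 19S cap of ATPases (Psmc genes) and non-ATPase subunits (Psmd genes) recognises, unfolds and feeds in the substrates. Interferon gamma induces Psmb8, Psmb9 and Psmb10, whose products take the place of the catalytic subunits in newly built cores, and Psme1 and Psme2, which form the PA28 activator. The resulting immunoproteasome produces peptides for MHC class I molecules and is abundant in lymphocytes and other cells of blood and spleen. Psme3 encodes PA28 gamma, an activator of the nucleus, and Psme4 encodes the activator PA200.

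The promoters of the 4 immunoproteasome genes measured and of 2 of the constitutive catalytic genes are shown. Their products compete for places in the 20S core or, for Psme1, bind its end. Each sequence runs 5′ to 3′ on the strand of its gene, from 250 bases before to 50 after the start (RefSeq, GRCm38.p6). Capitals mark matches, on either strand, to an interferon-stimulated response element (ISRE, searched as GAAA and again GAAA with 2 bases of any kind between), an interferon gamma activated site (GAS, TTCNNNGAA) or an antioxidant response element (ARE, TGACNNNGC).
Psmb8, chr17:34197945-34198244, plus strand: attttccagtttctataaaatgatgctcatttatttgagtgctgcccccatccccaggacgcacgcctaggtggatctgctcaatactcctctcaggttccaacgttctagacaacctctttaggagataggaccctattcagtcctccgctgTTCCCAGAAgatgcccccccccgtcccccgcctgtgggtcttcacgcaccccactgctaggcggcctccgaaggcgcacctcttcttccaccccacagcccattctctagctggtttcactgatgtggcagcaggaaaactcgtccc
Psmb9, chr17:34187281-34187580, minus strand: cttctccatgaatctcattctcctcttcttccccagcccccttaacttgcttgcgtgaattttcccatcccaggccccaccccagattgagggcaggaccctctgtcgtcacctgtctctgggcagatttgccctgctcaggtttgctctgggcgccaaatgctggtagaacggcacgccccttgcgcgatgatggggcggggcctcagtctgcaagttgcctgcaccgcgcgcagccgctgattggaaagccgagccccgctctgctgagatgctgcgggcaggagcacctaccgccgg
Psmb10, chr8:105938343-105938642, minus strand: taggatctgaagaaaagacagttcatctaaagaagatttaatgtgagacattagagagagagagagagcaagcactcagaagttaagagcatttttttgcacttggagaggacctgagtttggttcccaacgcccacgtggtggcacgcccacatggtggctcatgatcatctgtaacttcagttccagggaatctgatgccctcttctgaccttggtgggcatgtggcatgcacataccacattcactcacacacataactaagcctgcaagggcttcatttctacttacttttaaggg
Psme1, chr14:55578244-55578543, plus strand: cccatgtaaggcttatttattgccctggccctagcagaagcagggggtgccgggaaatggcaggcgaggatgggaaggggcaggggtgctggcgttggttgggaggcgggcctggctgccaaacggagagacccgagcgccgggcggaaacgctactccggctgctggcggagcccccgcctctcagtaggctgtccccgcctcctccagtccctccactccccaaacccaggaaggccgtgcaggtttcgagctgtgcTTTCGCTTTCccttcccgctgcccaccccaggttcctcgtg
Psmb5, chr14:54617946-54618245, minus strand: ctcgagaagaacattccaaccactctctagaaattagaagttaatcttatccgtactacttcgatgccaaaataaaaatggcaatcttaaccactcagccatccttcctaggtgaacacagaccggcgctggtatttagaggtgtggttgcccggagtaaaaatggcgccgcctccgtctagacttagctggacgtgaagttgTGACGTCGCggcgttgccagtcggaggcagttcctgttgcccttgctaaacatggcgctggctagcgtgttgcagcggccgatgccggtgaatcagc
Psmb6, chr11:70525107-70525406, plus strand: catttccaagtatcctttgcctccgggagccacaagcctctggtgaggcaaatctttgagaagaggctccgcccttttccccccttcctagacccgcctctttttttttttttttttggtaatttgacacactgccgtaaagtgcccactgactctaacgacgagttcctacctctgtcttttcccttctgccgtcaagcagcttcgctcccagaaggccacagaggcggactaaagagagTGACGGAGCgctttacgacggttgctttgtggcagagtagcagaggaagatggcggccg
Psmb8 and Psmb9 lie close together on chromosome 17, on opposite strands. The Psmb8 window held a GAS match, TTCCCAGAA, that begins 97 bases before the start, and the Psme1 window held an ISRE match read on the opposite strand, TTTCGCTTTC, that begins 9 bases after it. The windows of Psmb9 and Psmb10 held none of the 3 motifs, which says only that these letters are not in those 300 bases. Psmb5 and Psmb6 each held an ARE match, TGACGTCGC from 47 bases and TGACGGAGC from 9 bases before the start. Of 32851 promoter windows of the mouse genome, 3.44% held the ISRE letters, 8.3% the GAS letters and 12.4% the ARE letters. Windows were found for 37 of the 44 members, 40 windows in all, of which 4 held the ISRE, 2 the GAS and 6 the ARE letters. A match describes letters and is not a shown binding site.

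Signals are given in the linear units of the deposited values. Changes are injured or LPS minus sham on the log2(signal + 32) scale, which understates the change of dim genes, and a change is called when its adjusted p in limma is below 0.05. The injury arrays had a trimmed mean signal of 500 and the LPS arrays, whose scaling is not given in the sources used here, trimmed means of 121 to 141, so levels are not compared between these sets. On 8 of 64 blood and 7 of 64 spleen arrays the BioB and BioC hybridization controls stood at over 2 times the median of their set. These arrays, called high-control arrays here, included 3 of 4 arrays of trauma-hemorrhage blood at 3 days, all 4 at 7 days and 3 of 4 arrays of burn spleen at 1 day, so the calls and named differences that rest on the first and the last of these groups are also given without them. Each of the 2 is then left with 1 injured array, whose spread is taken from the other groups, so a call lost there can come from the single array as well as from the value. Where a single array or replicate is said to be left out, its replicate number was dropped from all injured (or LPS) or all sham groups of the set at once. The change then differs by the named array alone, but the adjusted p also by the spread of the smaller set. A call lost there can come from either. Correlations between arrays of 1 group lay between 0.728 and 0.987, and no 2 arrays held the same values. Neutrophil markers were above the array median on every blood array for 5 of 5 genes measured, and in spleen B cell markers were for 4 of 5 and T cell markers for 6 of 6. In such mixed cell samples fewer cells of a type and less RNA per cell cannot be told apart.

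Across 18 comparisons and 772 results for 43 tested members, 51 rises and 23 falls were called, in 34 members. The core subunits Psma7, Psmb1 and Psmb3, the ATPases Psmc1 and Psmc4, the cap subunits Psmd3 and Psmd11, the assembly chaperone Psmd10 and the testis-type subunit Psma8 were never called. Psma8 changed by -1.25 to 1.27 without passing the test, and its median signal was 11.3 in blood and 32.3 in spleen, near the pseudocount. Psmb11, the catalytic subunit of the thymus, stayed too dim to be tested, with signals of 0.839 to 147 on the injury arrays.

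The members' calls were concentrated in few comparisons, and in several of them so were those of all genes. After burn, 15 of 43 members were called in blood at 1 day, where 25.4% of all genes were, 13 of them higher (9.21% of all genes) and 2 lower (16.2%). In burn spleen 1 member was called at 2 hours (4.83% of all genes), higher (3.73%, with 1.1% lower). At 1 day 17 were called (49.9% of all genes), 7 higher (22.5%) and 10 lower (27.5%). At 7 days 8 were called (16.3% of all genes), 6 higher (8.56%) and 2 lower (7.76%). After trauma-hemorrhage, 2 members were called in blood at 2 hours (3.25% of all genes), both higher (1.97%, with 1.28% lower). At 1 day 7 were called (17.1% of all genes), 3 higher (7.11%) and 4 lower (10%). At 3 days 9 were called (12.4% of all genes), 5 higher (4.53%) and 4 lower (7.87%), and at 7 days 3 were called (8.01%), 2 higher (5.94%) and 1 lower (2.07%). In trauma-hemorrhage spleen all calls were higher, 7 at 3 days (7.56% of all genes, 5.17% higher and 2.39% lower) and 4 at 7 days (7.84%, 5.54% higher and 2.3% lower). LPS gave 1 call at 2 hours (1.88% of all genes), higher (1.52%, with 0.359% lower). No member was called by limma in burn blood at 2 hours, 3 days and 7 days (2.93%, 1.09% and 1.94% of all genes), in burn spleen at 3 days (0.556%), in trauma-hemorrhage spleen at 2 hours and 1 day (3.96% and 0.837%) or after LPS at 1 day (0%). At an unadjusted p below 0.05 those comparisons held 2, 1, 3, 5, 2, 5 and 1 members in the same order, where 14.6%, 9.56%, 12.8%, 9.16%, 12.7%, 7.97% and 10.9% of all genes passed.

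**Figure D1:**
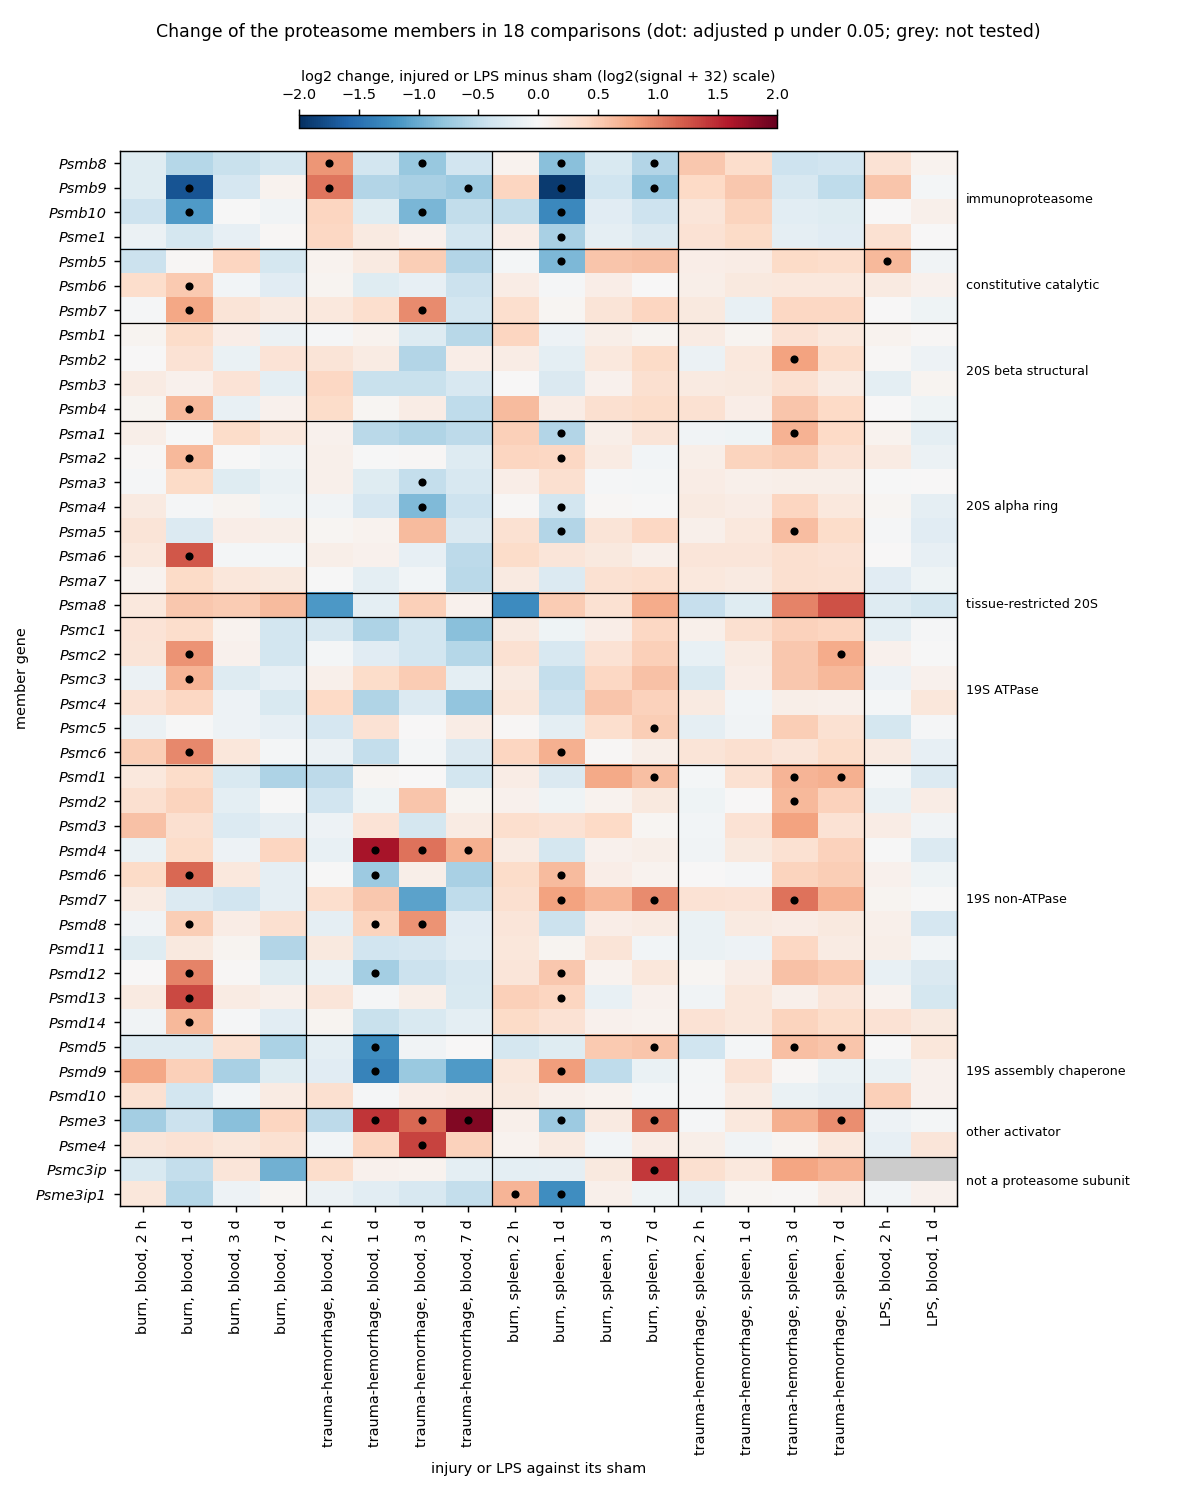
Change of each tested member (rows, grouped by role) in the 18 comparisons (columns), as log2(signal + 32) of injured or LPS arrays minus sham arrays; red is higher in the injured or LPS group, blue lower, a dot marks an adjusted p below 0.05 and grey a gene not tested. The immunoproteasome rows are blue in burn blood and spleen at 1 day (Psmb9 -1.73 and -1.91) and red in trauma-hemorrhage blood at 2 hours (Psmb9 1.08), while most rows below are red in burn blood at 1 day and in trauma-hemorrhage spleen at 3 days.

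At 2 hours after trauma-hemorrhage Psmb9 and Psmb8, catalytic subunits of the immunoproteasome, rose in blood leukocytes and no other member was called. Psmb9 had signals of 2851, 2565, 1456 and 2199 in injured mice, against 842, 822, 1287 and 1245 in sham mice. Every injured array was above every sham array, as for 3.32% of all genes. The change of 1.08 (SE 0.23, limma adjusted p = 0.00235) held whichever single array was left out, and was 1.66 and 0.49 within the 2 hybridization days. Psmb8 had 4088, 3828, 2294 and 4969 in injured mice, against 1661, 1883, 2302 and 2082 in sham mice. Injured replicate 3 lay inside the range of the shams for Psmb8. Its change of 0.88 (SE 0.25, limma adjusted p = 0.0345) no longer passed without injured replicate 1, 2 or 4 or without any of the sham replicates (0.74 to 0.96). It was 0.54 and not called with the mean of all probe sets of the gene (limma adjusted p = 0.404). Wherever that mean is given for Psmb8 it takes in a dim probe set. This one had a mean signal of 52.2 in blood and 53.1 in spleen, against 2638 and 3759 for the one used.

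Psmb10, the remaining catalytic subunit of the immunoproteasome, had 1731, 1441, 1261 and 1487 in the injured mice at 2 hours after trauma-hemorrhage, against 1451, 727, 973 and 1318 in sham mice. The ranges overlapped, with a change of 0.43 (limma adjusted p = 0.523). Psme1, a PA28 subunit, had 5513, 4874, 3269 and 4511 in injured mice, against 3493, 2966, 3592 and 3335 in sham mice. All but injured replicate 3 were above the shams, with a change of 0.42 (limma adjusted p = 0.143). The 4 immunoproteasome genes had a median change of 0.66, the 39 remaining members -0.00 and all genes -0.05. Among 15 genes of interferon signalling and class I loading, 5 rose and none fell. Among them were the transcription factors Stat2 (2.17), Irf1 (1.36) and Irf9 (1.39) and the class I transactivator Nlrc5 (0.67). The summed signal of the 6 T cell markers, 1 of them higher, was 25447 to 29458 in injured and 9626 to 31002 in sham mice, and that of the 5 B cell markers, 2 of them lower, was 5436 to 7946 against 7604 to 23350. Of 5 monocyte markers 1 was lower. Their part in the change of Psmb8 and Psmb9 was not tested. With all high-control arrays of the blood set left out, sham replicate 2 among them, Psmb9 changed by 0.97 and Psmb8 by 0.86, both called (limma adjusted p = 0.00295 and 0.0174).

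**Figure D2:**
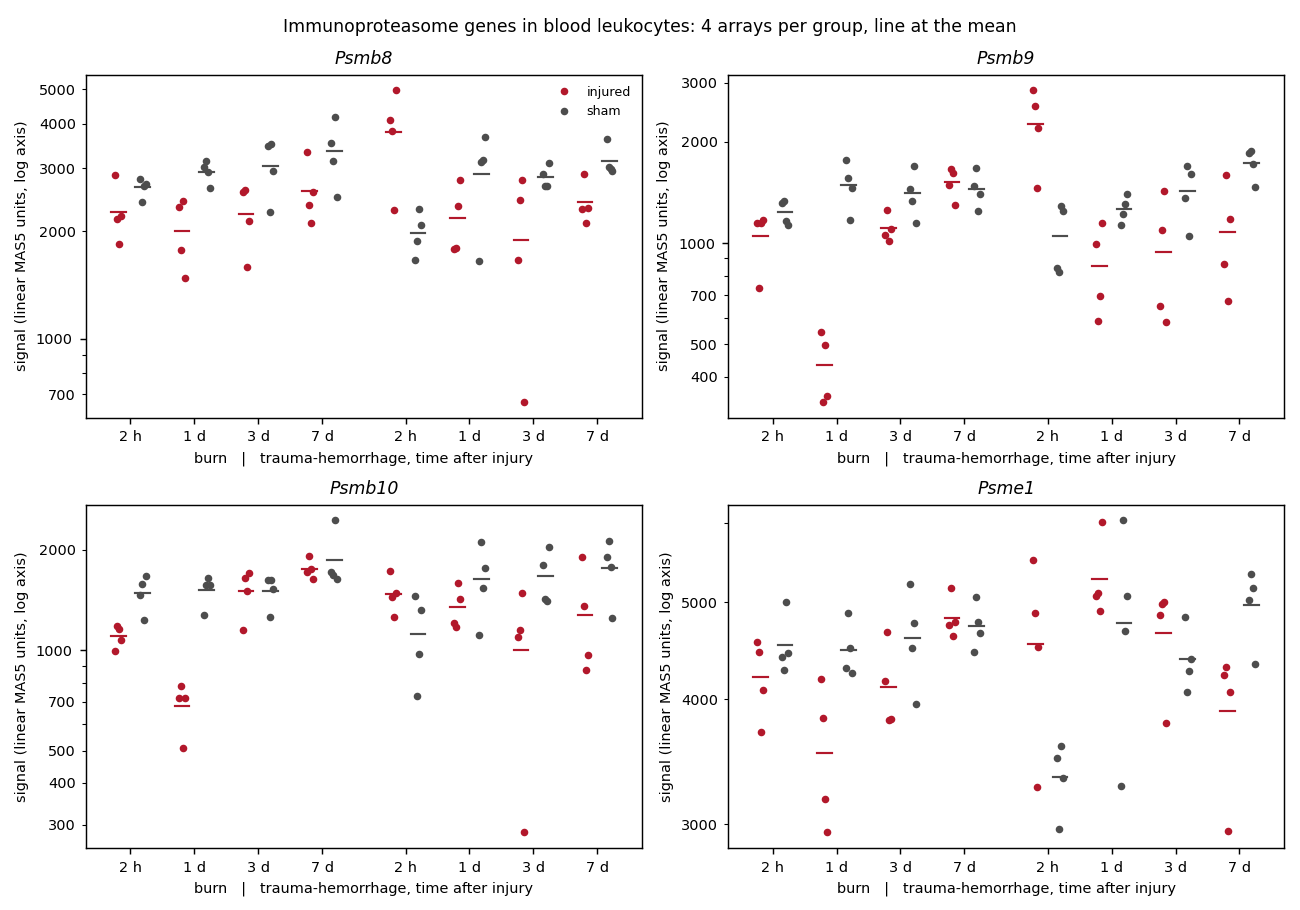
Signal of Psmb8, Psmb9, Psmb10 and Psme1 (linear units, log axis) on each blood array by time after burn (left) and trauma-hemorrhage (right); red points are injured mice, grey points sham mice, 4 each, and lines are means. Psmb9 stands above the shams at 2 hours after trauma-hemorrhage (1456 to 2851 against 822 to 1287) and below them at 1 day after burn (337 to 543 against 1174 to 1771).

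In the spleen the same 4 genes were higher on average at 2 hours and at 1 day after trauma-hemorrhage, without passing the test. At 2 hours their changes ran between 0.24 and 0.54, and for each of the 4 every injured array lay above every sham array, as they did for 5 of 43 members and 6.3% of all genes. Psmb9 had 2135 to 2629 on the injured arrays and 1701 to 1794 on the sham arrays, with a change of 0.41 (limma adjusted p = 0.421). At 1 day the changes ran between 0.35 and 0.54, and 3 of the 4 had an unadjusted p below 0.05, as did 7.97% of all genes. The interferon and class I list had 5 of 15 genes higher at 2 hours, among them Ifng (1.61), the gene of interferon gamma itself, Stat2 (2.16), Irf1 (0.89) and Irf9 (0.89). At 1 day 3 were higher, Stat2 (1.33), Irf1 (0.90) and the peptide transporter subunit Tap1 (0.88). The summed B cell markers at 2 hours were 22388 to 25214 in injured and 28578 to 30428 in sham spleen. Neutrophil markers summed to 45451 to 52441 against 38952 to 43549. The sums of the other cell types overlapped at 2 hours, and all sums did at 1 day. The part of these genes and cells in the immunoproteasome values was not tested.

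At 1 day after burn the immunoproteasome genes were lower in both tissues. In blood Psmb9 had 543, 337, 498 and 351 in burned mice, against 1771, 1564, 1174 and 1454 in sham mice. No burned array reached a sham array, and the change was -1.73 (SE 0.23, limma adjusted p = 3.54e-08). Psmb10 had 717, 784, 510 and 720 in burned mice, against 1274, 1573, 1646 and 1574 in sham mice. These groups did not overlap either, and Psmb10 fell by 1.13 on the log2 scale (SE 0.26, limma adjusted p = 0.000653). Both calls were kept whichever array was left out, with -1.88 and -1.57 for Psmb9 and -0.89 and -1.36 for Psmb10 within the 2 hybridization days.

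Psmb8 had 2338, 1767, 2426 and 1476 in burned blood at 1 day, against 3018, 3155, 2922 and 2639 in sham blood, and Psme1 had 4193, 3828, 3180 and 2945, against 4292, 4876, 4500 and 4246. All burned arrays lay below all sham arrays for both, as for 18% of all genes, but the changes of -0.57 and -0.35 did not pass the test (limma adjusted p = 0.0946 and 0.0851). The median change of the 4 genes was -0.85, against 0.37 for the 39 remaining members and -0.01 for all genes. Markers of lymphocytes moved in the same comparison. The 5 B cell markers, 4 of them lower, summed to 3444 to 4721 in burned and 29399 to 33542 in sham blood. The 5 NK cell markers, 4 of them lower, summed to 2110 to 5582 against 14149 to 18123, and the 6 T cell markers, 4 of them lower, to 11748 to 16677 against 23353 to 27975. The 5 neutrophil markers, 1 of them higher, summed to 78279 to 105670 against 47538 to 78080. Of 5 monocyte markers 1 was higher and 3 lower. The part of these cell types in the falls of Psmb9 and Psmb10 was not tested. In the interferon and class I list Ifng (2.23), the receptor subunit Ifngr1 (0.97) and Irf1 (0.83) rose and Irf9 (-1.07) fell, of 15 genes.

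In the spleen at 1 day after burn all 4 genes fell. Psmb9 had 489, 701, 421 and 618 in burned mice, against 2263, 1900, 2167 and 2278 in sham mice. Psmb10 had 714, 818, 651 and 1202, against 1757, 2316, 2213 and 1964. Neither gene's groups overlapped, and the changes were -1.91 (SE 0.21, limma adjusted p = 3.38e-11) and -1.28 (SE 0.16, limma adjusted p = 1.98e-09). Psmb8 had 1953, 1713, 2223 and 3702 in burned mice, against 4389, 4091, 4337 and 3736 in sham mice. Psme1 had 4062, 3195, 4026 and 5549, against 6381, 6663, 6922 and 5923. The groups did not overlap for these genes either, although burned replicate 4 came close to the shams. The changes were -0.84 (SE 0.21, limma adjusted p = 0.000792) and -0.64 (SE 0.17, limma adjusted p = 0.00162). In this comparison all burned arrays lay below all sham arrays for 8 of 43 members and 22% of all genes. With the mean of all probe sets, which takes in the dim one, Psmb8 was at -0.16 and not called (limma adjusted p = 0.638).

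Burned replicates 1, 2 and 3 of that spleen comparison were high-control arrays. Without them, with burned replicate 4 alone against the 4 shams and its spread taken from the other groups, Psmb9 still fell by 1.74 and Psmb10 by 0.75 on the log2 scale (limma adjusted p = 1.39e-06 and 0.0146). Psmb8 and Psme1 changed by -0.16 and -0.22 and no longer passed (limma adjusted p = 0.740 and 0.515). With the control level as a covariate the changes were -1.51 for Psmb9, -1.08 for Psmb10, -0.39 for Psmb8 and -0.32 for Psme1, and again only the first 2 passed. Beside them the summed B cell markers were 9587 to 13256 in burned and 29097 to 33550 in sham spleen, the NK cell markers 2607 to 3765 against 12893 to 14543, and the T cell markers 17703 to 20021 against 28404 to 28650, with 4 of 5, 4 of 5 and 5 of 6 genes lower. The monocyte markers, 3 of 5 lower, summed to 2995 to 8108 against 12097 to 14664, and the platelet markers, none of the 5 tested called, to 4380 to 6344 against 1915 to 3400. Neutrophil markers, 2 of 5 lower, overlapped in their sums. What these cells contributed was not tested. Of the 15 interferon and class I genes 7 fell, among them Ifng (-1.49), Stat2 (-0.81), Irf9 (-1.56) and Nlrc5 (-0.85), and B2m, the light chain of class I molecules, rose (0.71).

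**Figure D3:**
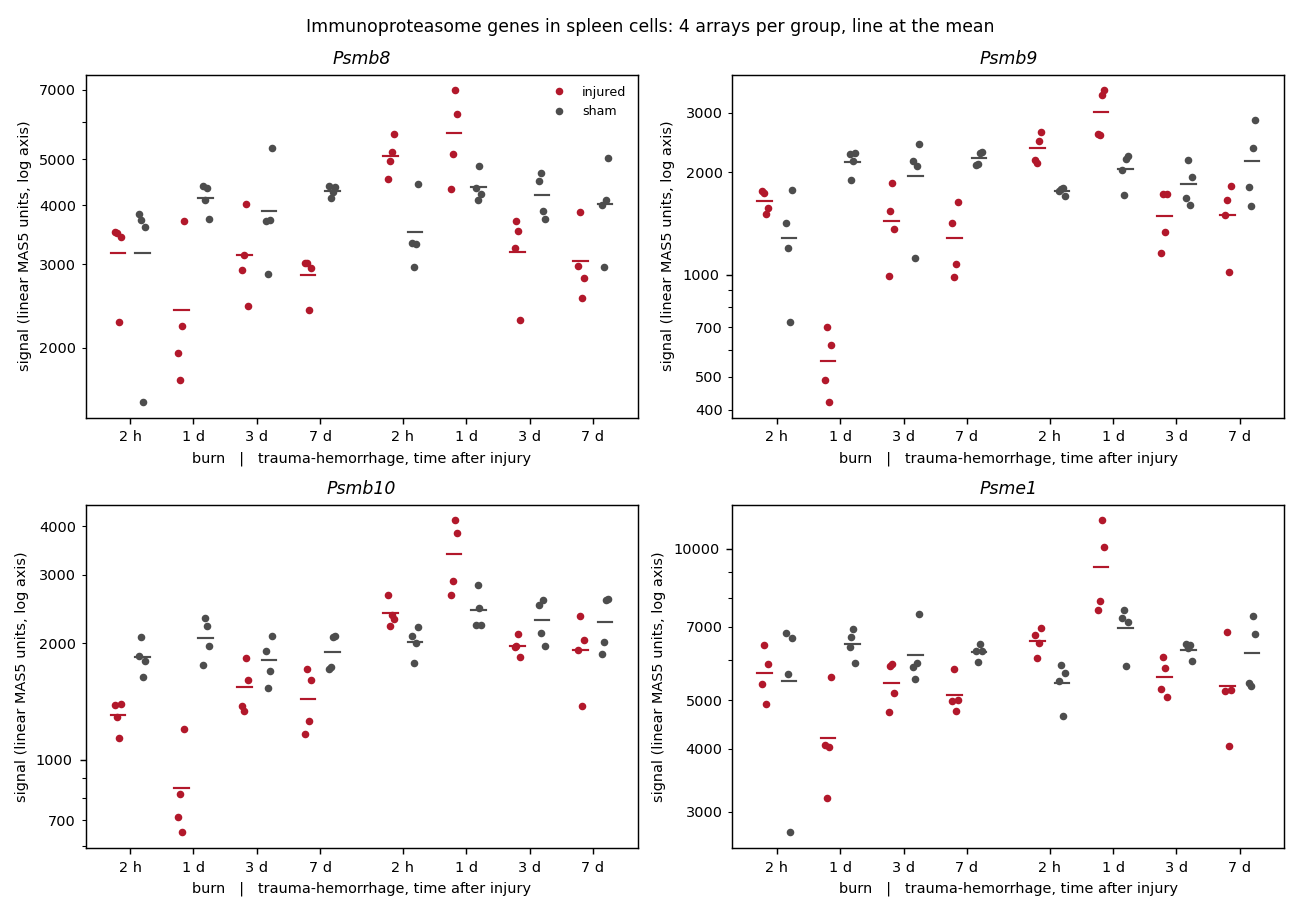
Signal of Psmb8, Psmb9, Psmb10 and Psme1 (linear units, log axis) on each spleen array by time after burn (left) and trauma-hemorrhage (right); red points are injured mice, grey points sham mice, 4 each, and lines are means. At 1 day after burn all 4 genes lie below the shams, with Psmb9 at 421 to 701 against 1900 to 2278, and at 7 days Psmb9 is at 982 to 1632 against 2098 to 2299.

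Later times gave smaller falls. In burn spleen at 7 days Psmb9 had 1420, 982, 1076 and 1632 in burned mice, against 2098, 2111, 2284 and 2299 in sham mice. All burned arrays were lower, with a change of -0.80 (SE 0.21, limma adjusted p = 0.0042) that was kept whichever array was left out. Psmb8 had 3024, 3022, 2397 and 2944, against 4391, 4133, 4261 and 4377. It changed by -0.59 (limma adjusted p = 0.0404), and the call was lost without burned replicate 1, 2 or 3 or sham replicate 1, 2 or 4 (-0.62 to -0.51) and with the mean of all probe sets (-0.56, limma adjusted p = 0.153). Psmb10 (-0.41, limma adjusted p = 0.0751) and Psme1 (-0.29, limma adjusted p = 0.296) were lower on every burned array too but did not pass. All burned arrays lay below all sham arrays for 4 of 43 members and 14.5% of all genes. T cell markers (5 of 6), B cell markers (4 of 5) and NK cell markers (2 of 5) were lower in the same spleens and erythroid markers (5 of 5) and neutrophil markers (4 of 5) higher. Monocyte markers (1 of 5 higher) summed to 11193 to 14363 in burned and 6071 to 7722 in sham spleen, with no overlap. The part of these cells in all calls of this comparison was not tested. Of the 15 interferon and class I genes Irf1 (-0.99), Nlrc5 (-0.62) and Tap1 (-0.64) fell.

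In trauma-hemorrhage blood at 3 days Psmb10 had 1098, 1153, 1486 and 284 in injured mice, against 1805, 1421, 1402 and 2046 in sham mice, and Psmb8 had 1664, 2454, 2777 and 665, against 2897, 2680, 2673 and 3102. Injured replicate 4 was far below the rest. The calls (-0.91, limma adjusted p = 0.0182, and -0.76, limma adjusted p = 0.0389) were lost without it, at -0.41 and -0.33. Psmb10 also lost its call without sham replicate 1 or 4 (-0.86 and -0.80), and Psmb8 without injured replicate 1 or any sham replicate (-0.78 to -0.71). Without the high-control arrays, injured replicates 1, 2 and 4, they were -0.15 and -0.03. Neither passed after quantile normalization (-0.71 and -0.58) or with the control level as a covariate (-0.45 and -0.56), and Psmb8 was at -0.10 with the mean of all probe sets. At 3 days T cell markers (3 of 6) and B cell markers (1 of 5) were lower and neutrophil markers (2 of 5) higher in injured blood. Platelet markers (3 of 6 higher) summed to 97793 to 164810 in injured and 48353 to 87780 in sham blood, with no overlap, and erythroid markers (3 of 5 higher) to 51153 to 183420 against 27050 to 98453. The ratio of the 3' to the 5' Gapdh control probe sets, a sign of RNA quality, was 1.75 to 2.34 on the injured and 2.35 to 3.72 on the sham arrays, with no overlap. The part of these measures in all calls of this comparison was not tested. At 7 days Psmb9 had 866, 1592, 671 and 1177 in injured mice, against 1851, 1880, 1717 and 1466 in sham mice, with overlap. Its change of -0.73 (limma adjusted p = 0.042) was lost without injured replicate 1 or 3 or any sham replicate (-0.81 to -0.54), and was -0.30 with the control level as a covariate and -0.58 after quantile normalization, neither called. Neutrophil markers (2 of 5) and erythroid markers (4 of 5) were higher in that blood, and their part was not tested. The median of all genes in these 2 comparisons was -0.21 and 0.06, and -0.07 in both after quantile normalization. Relative to the first values, Psmb10 and Psmb8 stood at -0.69 and -0.54 at 3 days and Psmb9 at -0.80 at 7 days.

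The 3 constitutive catalytic genes had few calls. In blood 1 day after burn Psmb7, the trypsin-like subunit, had 5021 to 6384 in burned blood and 2764 to 3998 in sham blood, and Psmb6, the caspase-like subunit, had 2448 to 2901 and 1708 to 2053. Every burned array was above every sham array for both, as for 12.3% of all genes. They rose by 0.77 (limma adjusted p = 0.044) and 0.52 (limma adjusted p = 0.0357), where Psmb5, the chymotrypsin-like subunit, was at 585 to 1240 against 632 to 1338 and changed by 0.03. Both calls were near the threshold. Psmb7 lost its call without burned replicate 1, 2, 3 or 4 or sham replicate 2, 3 or 4 (0.69 to 0.81) and after quantile normalization (0.72), and Psmb6 without burned replicate 1 or 2 or sham replicate 1, 3 or 4 (0.48 to 0.52).

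Elsewhere Psmb5 fell in burn spleen at 1 day, with 455 to 1580 in burned against 1215 to 2264 in sham mice and a change of -0.89 (limma adjusted p = 0.00858). The groups overlapped, and the change was 0.04 without the high-control arrays, -0.63 without burned replicate 2, -0.71 without sham replicate 2, -0.69 after quantile normalization and -0.31 with the control level as a covariate, none of which passed. Psmb7 rose in trauma-hemorrhage blood at 3 days, with 3414 to 6990 in injured against 1237 to 3108 in sham mice, by 0.94 (limma adjusted p = 0.0261). The call was lost without injured replicate 4 (0.72), sham replicate 2 (0.95) or sham replicate 4 (0.66), and without the high-control arrays (0.59). Psmb6 was called in no comparison other than burn blood at 1 day.

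In blood the remaining members included 13 rises 1 day after burn. Of the 39 tested none fell, and 29 had a change above 0. The 14 constitutive subunits of the 20S core had a median change of 0.38 and the 17 subunits of the 19S cap 0.45, against -0.01 for all genes. All 4 burned arrays lay above all 4 sham arrays for 17 of 43 members, where 12.3% of all genes did, and below them for 4 members, the immunoproteasome genes, where 18% did. The largest rise was that of Psmd13, a scaffold subunit of the cap, with 1941, 1393, 2213 and 1618 in burned mice, against 441, 762, 674 and 975 in sham mice. Psma6, of the alpha ring, had 5528, 5139, 5358 and 5049, against 2350, 2420, 2144 and 1922. Psmd6, another scaffold subunit of the cap, had 8328, 7515, 10981 and 8131, against 4108, 3852, 3703 and 3799. None of the 3 showed any overlap. The changes were 1.32 (SE 0.22, limma adjusted p = 3.26e-06), 1.25 (SE 0.19, limma adjusted p = 3.59e-07) and 1.16 (SE 0.25, limma adjusted p = 0.000284), all kept whichever array was left out. Within the 2 hybridization days Psmd13 changed by 1.45 and 1.19 and Psma6 by 1.15 and 1.34.

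Among the other cap subunits, Psmd12 had 1498 to 2303 in burned and 924 to 1007 in sham blood, a rise of 0.99 (limma adjusted p = 0.000102). The ATPase Psmc6 had 4541 to 7937 against 2682 to 3296, a rise of 0.97 (limma adjusted p = 0.000179). For Psmc6, but not for Psma6, Psmd6 or Psmd13, another probe set of the gene went the other way (-0.17), and with the mean of its probe sets the change was 0.38 and not called. The ATPases Psmc2 (0.89) and Psmc3 (0.67), the deubiquitinating cap subunit Psmd14 (0.65), the cap subunit Psmd8 (0.49), and Psmb4 (0.65) and Psma2 (0.64) of the core were also higher. Of these Psmc3 lost its call without burned replicate 1 or 3 or any sham replicate (0.49 to 0.69), Psmd14 and Psmb4 without sham replicate 3 (0.58 and 0.61), and Psmd8 without burned replicate 3 or 4 or sham replicate 3 (0.44 to 0.47). Fewer lymphocyte and more neutrophil marker signals, given above, moved with this rise as well, and their part was not tested. Of the 8 measured ubiquitin receptors and deubiquitinases outside the members 3 rose, Sem1 (1.16), Uchl5 (0.57) and Ubqln1 (0.88). Of 11 assembly, inhibitor and transcription genes Ecpas (1.03) and Txnl1 (0.69) rose, and Psmg2, a chaperone of alpha ring assembly, fell (-1.47).

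In burn spleen at 1 day the remaining members were split, with 7 rises and 6 falls of 39 and a median of -0.09. All 5 cap subunits called rose, of 17. They were Psmc6 (0.71), Psmd6 (0.64), Psmd7 (0.81), Psmd12 (0.53) and Psmd13 (0.43). The alpha ring had 3 falls, Psma1 (-0.59), Psma5 (-0.59) and Psma4 (-0.36), and a rise of Psma2 (0.42). The chaperone Psmd9 rose as well (0.83), while another of its probe sets was at -0.24. Without the 3 high-control arrays Psmc6 (1.09), Psmd12 (0.98) and Psmd6 (0.90) were still called higher, as were Psmd9 (1.13), Psmd13 (0.73) and Psma2 (0.68), Psmd7 was at 0.81 without passing, and the 3 alpha ring falls shrank to between -0.29 and -0.23 and were lost. Another probe set of Psmc6 again went the other way (-0.85). The calls of Psmd7 (5 arrays, 0.70 to 0.87), Psmd12 (burned or sham replicate 4, 0.39 and 0.49), Psmd13 (4 arrays, 0.32 to 0.42), Psma2 (6 arrays, 0.33 to 0.45) and Psma4 (4 arrays, -0.35 to -0.31) were each lost when a single array was left out. After quantile normalization Psma1 (-0.18), Psma5 (-0.20) and Psmd7 (0.78) were not called and Psma4 was at 0.06, and with the mean of all probe sets Psma1 (-0.37), Psma5 (-0.22), Psmd9 (0.27) and Psmc6 (-0.27) were not.

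**Figure D4:**
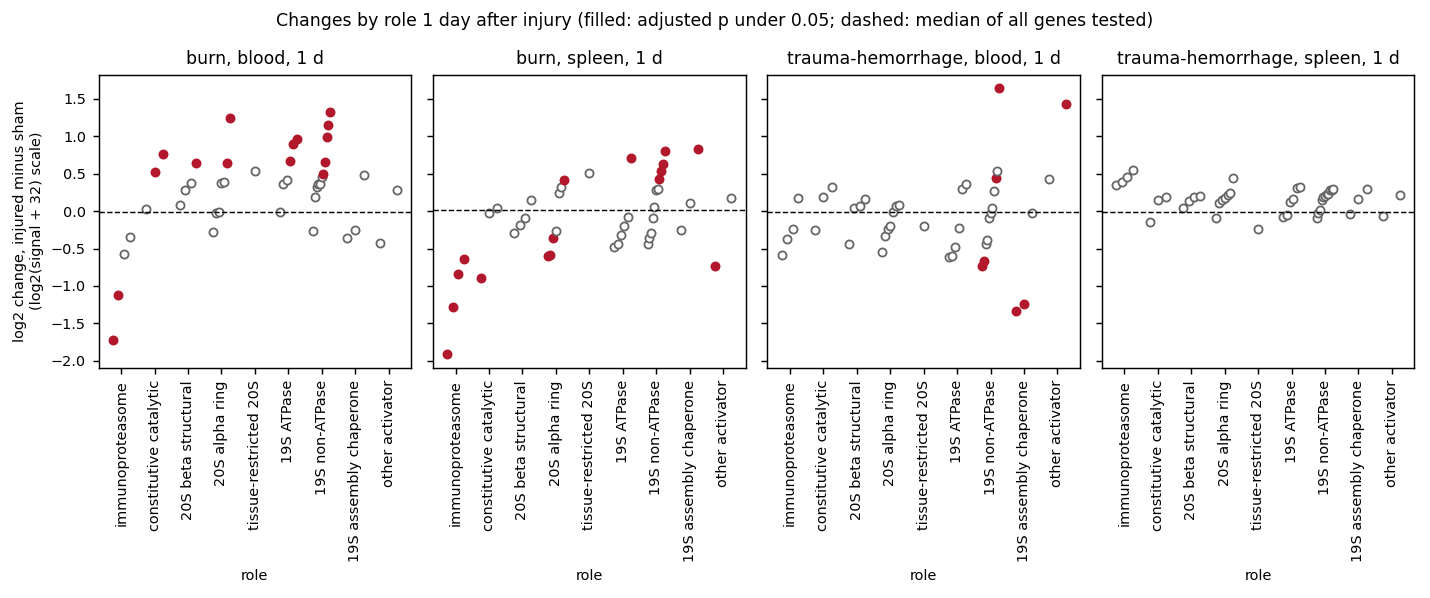
Change (log2(signal + 32) scale, injured minus sham) of each member by role 1 day after burn or trauma-hemorrhage, in blood and spleen; filled points have an adjusted p below 0.05 and the dashed line is the median of all genes tested. The immunoproteasome points all lie below the line in both burn panels (-1.91 to -0.35), while most points of the 20S core and 19S cap in burn blood lie above the line, and the trauma-hemorrhage spleen panel has no filled point.

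In trauma-hemorrhage spleen at 3 days the core and cap lay on 1 side of 0. All 14 constitutive core subunits and all 17 cap subunits had a change above 0, with medians of 0.40 and 0.47, against -0.08 for all genes, while the 4 immunoproteasome genes were between -0.41 and -0.18. Of the 39 remaining members 7 rose and none fell, where 5.17% of all genes rose, and all injured arrays lay above all sham arrays for 16 of 43 members, against 8.42% of all genes. Psmd7, a cap subunit paired with the deubiquitinase Psmd14, had 455, 548, 443 and 525 in injured mice, against 184, 226, 154 and 329 in sham mice. Psmb2, of the beta ring, had 1381, 1135, 1281 and 1830, against 995, 743, 529 and 952, and Psma1, of the alpha ring, had 3099, 3468, 2992 and 3721, against 2049, 1952, 1884 and 2237. The groups did not overlap for these 3 genes. Their changes were 1.08 (SE 0.32, limma adjusted p = 0.0239), 0.80 (SE 0.22, limma adjusted p = 0.0168) and 0.70 (SE 0.15, limma adjusted p = 0.00187).

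Psmd2, with 2715 to 3590 in injured and 1686 to 2173 in sham spleen, rose by 0.65 (limma adjusted p = 0.00453), and like Psma1 kept its call whichever array was left out. Psmd2 encodes a scaffold of the cap base. With the mean of all probe sets Psmd2 (0.24), Psma1 (0.29), Psma5 (0.29) and Psmd7 (0.52) were not called, nor were Psmd7 (1.05) and Psmd5 (0.54) after quantile normalization. These means take in dim probe sets. That of Psmd2 had a mean signal of 71.4 in spleen, against 2046 for the one used. Psmd1 (0.68), Psma5 (0.62) and the assembly chaperone Psmd5 (0.60) were called too. These calls and others were lost when arrays were left out. Without any one of 6 arrays Psmd1 was at 0.57 to 0.77, Psma5 at 0.53 to 0.66 and Psmd5 at 0.51 to 0.64. Psmd7 was at 1.01 to 1.11 without any one of 5 and Psmb2 at 0.62 to 0.78 without any one of 3. Erythroid markers (2 of 5) were higher and T cell (4 of 6), B cell (2 of 5) and NK cell markers (1 of 5) lower in these spleens. Platelet markers (1 of 5 tested higher) summed to 3884 to 7699 in injured and 1575 to 2076 in sham spleen, with no overlap. Their part was not tested. Psmg1 (0.78) and Psmg2 (0.64), the chaperone pair of alpha ring assembly, rose among the 11 assembly genes, and Uchl5 (0.77) and Ubqln1 (0.69) among the 8 ubiquitin genes.

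At 7 days after trauma-hemorrhage the spleen had all 14 core and all 17 cap subunits above 0, with medians of 0.30 and 0.43. The median of all genes is not given beside these. Within the 2 hybridization days 22 and 0 members were called. The share of all genes called within each of the days is not given, so these counts are not read as particular to the members. Sham replicate 2, of the first of these days, had controls at 3.60 times the median of its set. Leaving out 1 array gave 0 to 10 calls, again without the share of all genes beside them. Beside this, erythroid markers (5 of 5), neutrophil markers (2 of 5) and monocyte markers (1 of 5) were higher and B cell (4 of 5) and T cell markers (3 of 6) lower, whose part was not tested. Psmc2 (0.75, limma adjusted p = 0.0363) and Psmd1 (0.71, limma adjusted p = 0.0345) of the cap rose, with 3275 to 4876 against 1402 to 4196 and with 2154 to 2876 against 1074 to 2375 in sham mice. Both overlapped with the shams. Each lost its call without any one of 5 arrays (0.49 to 0.74 for Psmc2 and 0.52 to 0.69 for Psmd1), with the lowest values without sham replicate 2, a high-control array, and Psmc2 also with the mean of probe sets (0.35, limma adjusted p = 0.138). Psmd5 had 1706, 1281, 1470 and 1491 in injured mice, against 857, 865, 1046 and 1265 in sham mice. It had no overlap, as for 4.78% of all genes. Its rise of 0.56 (limma adjusted p = 0.045) was lost without any one of 5 arrays (0.49 to 0.58) and after quantile normalization (0.53). In burn spleen at 7 days Psmd7 had 556, 429, 532 and 273 in burned mice, against 215, 194, 251 and 180 in sham mice. Its rise of 0.95 (limma adjusted p = 0.0282) was lost without any one of 6 arrays (0.84 to 0.96), as were those of Psmd1 (0.61), Psmd5 (0.55) and Psmc5 (0.50) without any one of 5 to 7. Psmd7 was also not called with the mean of all probe sets (0.41, limma adjusted p = 0.109) or with quantile normalization (0.79, limma adjusted p = 0.188), nor were Psmd5 (0.50) and Psmc5 (0.43) after quantile normalization.

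The cap in trauma-hemorrhage blood behaved gene by gene. At 1 day Psmd4, the ubiquitin receptor of the cap, had 5583, 4927, 6678 and 5737 in injured mice, against 2066, 1311, 2221 and 1734 in sham mice. All injured arrays lay above all sham arrays, as for 3 of 43 members and 8% of all genes. The change of 1.65 (SE 0.23, limma adjusted p = 7.79e-07) was 1.65 and 1.64 within the 2 hybridization days and was kept whichever array was left out. Another probe set of Psmd4 changed by 2.09 and a dim one by 0.13. The same probe sets changed by 1.38 and -0.31 at 3 days and by 0.60 and 0.06 at 7 days. Psmd4 also rose at 3 days (1.08, limma adjusted p = 0.00131; 0.80 and not called without injured replicate 4) and at 7 days, where it had 2937, 2846, 2957 and 2701 in injured mice, against 1507, 1968, 1589 and 1925 in sham mice (0.71, limma adjusted p = 0.0409). The 3 day change was 0.11 without the high-control arrays. The 7 day call was lost without any one of 7 arrays (0.64 to 0.77), and the change was 0.46 with the mean of all probe sets and -0.14 with the control level as a covariate, neither called.

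Psmd8 rose at 3 days after trauma-hemorrhage, with 4479, 2878, 3135 and 4900 in injured blood, against 1761, 1920, 2417 and 1955 in sham blood, by 0.90 (SE 0.16, limma adjusted p = 0.00016). No array overlapped. The change was 0.64 and not called without the high-control arrays, with injured replicate 3 alone against the shams. Its rise at 1 day was smaller (0.44, limma adjusted p = 0.0469) and was lost without any one of 7 arrays (0.26 to 0.49). Lower at 1 day were Psmd5 and Psmd9, chaperones that help to assemble the cap base. Psmd5 had 278, 416, 389 and 396 in injured mice, against 625, 1908, 736 and 776 in sham mice, with no overlap. Its change was -1.25 (SE 0.28, limma adjusted p = 0.00147). All injured arrays lay below all sham arrays for 2 of 43 members and 9.26% of all genes. Psmd9 had 199 to 504 against 464 to 1512, overlapping, with -1.33 (limma adjusted p = 0.0293), lost without injured replicate 1 or sham replicate 1, 2 or 4 (-1.33 to -1.06). T cell markers (3 of 6) and B cell markers (3 of 5) were lower in the same blood. Neutrophil markers (2 of 5 higher) summed to 90918 to 140730 against 56051 to 82752, and monocyte markers (1 of 5 higher) to 26802 to 38423 against 19687 to 24861. Platelet markers (6 of 6 higher) summed to 108590 to 128280 against 34397 to 56709, and erythroid markers (4 of 5 higher) to 67444 to 101510 against 28877 to 53952. The part of these cells in all calls of the 1 day comparison was not tested.

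Psmd6 had 4103, 2406, 3624 and 2439 in trauma-hemorrhage blood at 1 day, against 4711, 6700, 4257 and 4979 in sham blood. It fell by 0.73 on the log2 scale (limma adjusted p = 0.0372) with no overlap, and Psmd12 fell by 0.67 (limma adjusted p = 0.0155). The calls were lost without any one of 6 arrays for Psmd6 (-0.81 to -0.60) and of 3 for Psmd12 (-0.64 to -0.49). With the control level as a covariate Psmd6 (-0.62), Psmd12 (-0.54), Psmd9 (-1.18) and Psmd8 (0.40) were not called. The controls stood at 1.44 to 1.70 times the median of their set on these injured arrays and at 0.89 to 1.10 on the sham arrays. They did not overlap, so control level and injury cannot be told apart there. After quantile normalization Psmd12 (-0.45) and Psmd9 (-1.07) were not called. Psmd6 and Psmd12 are 2 of the cap genes that rose at the same time after burn. At 3 days Psma3 (-0.47) and Psma4 (-0.88) of the alpha ring were lower. For Psma3 the call rested on injured replicate 4, at 2314 against 4340 to 4610 on the other injured arrays, and was lost without it (-0.24) and without 4 other arrays, and Psma4 lost its call without that array too (-0.74). They were -0.20 and -0.22 without the high-control arrays and -0.36 and -0.52 with the covariate, none of them called. Psma3 was at -0.17 with the mean of all probe sets. Relative to the median of all genes Psma3 stood at -0.26 and Psma4 at -0.66, and Psmd8 and Psmd4 at 1.11 and 1.29.

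The activator gene Psme3 had the largest rise of any member, in trauma-hemorrhage blood at 7 days. In the same tissue it had 21836, 15544, 26259 and 24268 at 1 day, against 11377, 3841, 11849 and 7709 in sham mice. At 7 days it had 24555, 23772, 65206 and 28788, against 5949, 8578, 9353 and 13147. The groups did not overlap at either time, and 8% and 7.1% of all genes lay above the shams in the same way. The changes were 1.44 (SE 0.37, limma adjusted p = 0.0051) and 1.86 (SE 0.37, limma adjusted p = 0.00103). At 3 days the arrays overlapped, at 11149 to 41906 against 5129 to 22599, with a change of 1.15 (limma adjusted p = 0.033). Another probe set of Psme3 changed by 2.11, 1.49 and 1.76 at the 3 times.

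These rises of Psme3 moved with other measures. At 1 day the change was 1.09 and not called without sham replicate 2, the lowest array. It was 0.61 with the control level as a covariate (limma adjusted p = 0.0957). As given above, the control level did not overlap between the groups of that time. At 3 days the call was lost without injured replicate 1, 2 or 4 or sham replicate 1 or 4 (0.76 to 1.16), and the change was -0.06 without the high-control arrays, 0.23 with the covariate and 0.58 after quantile normalization. At 7 days all 4 injured arrays were high-control arrays, with controls at 2.14 to 3.98 times the median, so no value without them exists, and with the covariate the change was 0.21. Erythroid markers were higher at all 3 times (4, 3 and 4 of 5 genes), with sums of 127960 to 239610 against 31010 to 59424 at 7 days and those given above at 1 and 3 days. Platelet markers were higher at 1 day (6 of 6 genes) and 3 days (3 of 6). The part of red cell and platelet RNA in the values of Psme3 and Psmd4 was not tested.

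**Figure D5:**
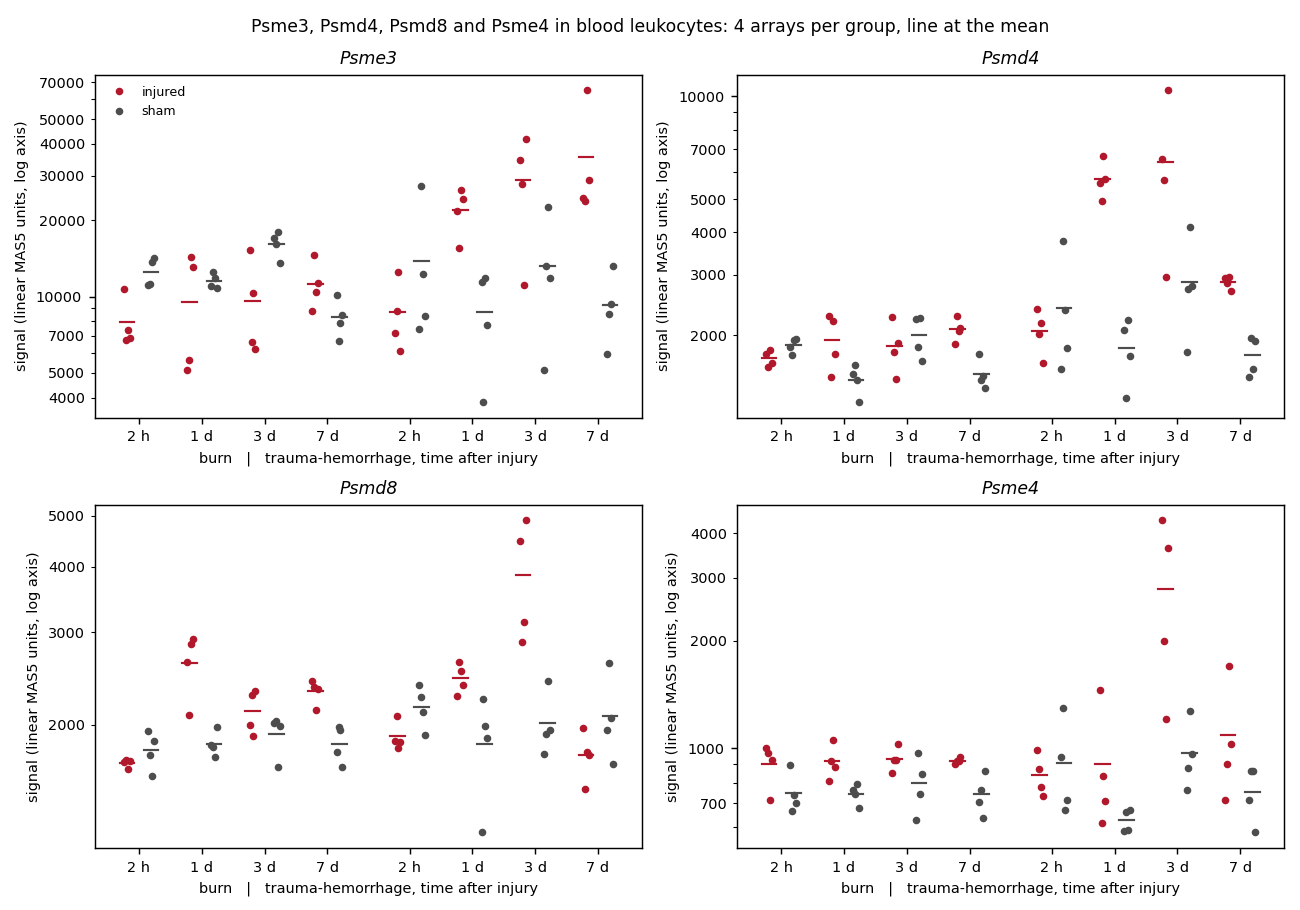
Signal of Psme3, Psmd4, Psmd8 and Psme4 (linear units, log axis) on each blood array by time after burn (left) and trauma-hemorrhage (right); red points are injured mice, grey points sham mice, 4 each, and lines are means. Psme3 and Psmd4 lie above the shams at 1 and 7 days after trauma-hemorrhage (Psme3 15544 to 26259 against 3841 to 11849 at 1 day), and neither does so after burn at 1 day.

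In the spleen Psme3 rose at 7 days in both models. After burn it had 5300, 5189, 6029 and 3701, against 2736, 2167, 2193 and 2346 in sham mice. All burned arrays were higher, as for 15 of 43 members and 12.7% of all genes. The change of 1.07 (SE 0.27, limma adjusted p = 0.0033) was kept whichever array was left out. After trauma-hemorrhage it had 2567 to 7237 against 1374 to 2641, a change of 0.93 (limma adjusted p = 0.0222) that was 0.58 without injured replicate 3 and 0.81 without sham replicate 2, neither called; with all high-control spleen arrays left out it was 0.81 and called (limma adjusted p = 0.0321). Erythroid markers were higher in 5 of 5 genes in both, with sums of 27557 to 41660 against 900 to 3016 after burn and of 21768 to 63317 against 2158 to 15087 after trauma-hemorrhage, and their part was not tested. In spleen 1 day after burn Psme3 fell by 0.73 on the log2 scale (limma adjusted p = 0.0235), but was 0.35 higher without the high-control arrays, and the call was lost without burned replicate 1, 2 or 3 or sham replicate 2 (-0.70 to -0.56), after quantile normalization (-0.37) and with the mean of all probe sets (-0.17).

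Psme4 rose in 1 comparison, trauma-hemorrhage blood at 3 days, with 1203 to 4341 in injured and 763 to 1269 in sham mice. The lowest injured array lay inside the sham range. Its change of 1.35 (SE 0.25, limma adjusted p = 0.00024) was kept whichever single array was left out, and was 0.33 and not called without the high-control arrays. Of its 4 other probe sets that were above the array median on 4 or more arrays there, 2 changed by 1.28 and 1.39 and 2 by 0.28 and -0.18.

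Of the genes that are no subunits, Psmc3ip, a recombination factor, had 394, 216, 597 and 190 in burn spleen at 7 days, against 120, 96, 82 and 100 in sham spleen. It rose by 1.41 (SE 0.32, limma adjusted p = 0.000893) with no overlap, as for 12.7% of all genes. Psme3ip1 fell in burn spleen at 1 day by 1.25 on the log2 scale (SE 0.21, limma adjusted p = 1.36e-06), a call kept whichever array was left out. It was still lower without the high-control arrays, at -1.18 (limma adjusted p = 0.000498). At 2 hours it had 602, 710, 587 and 716 in burned mice, against 518, 516, 177 and 487 in sham mice. That rise of 0.68 (limma adjusted p = 0.0394) rested on sham replicate 3, a high-control array, with 0.34 and no call without it, and was also lost without burned replicate 1, 2 or 4 (0.64 to 0.72). Platelet markers (2 of 5 tested higher) summed to 3019 to 4641 in those burned spleens and 828 to 1662 in the shams, and 1 of 5 B cell and 1 of 5 NK cell markers were lower, whose part was not tested.

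LPS changed little among these genes in blood leukocytes. At 2 hours Psmb5 had 948 to 1186 in LPS mice and 475 to 791 in sham mice, with no overlap, as for 4.16% of all genes. Its rise of 0.64 (SE 0.14, limma adjusted p = 0.0275) was lost without any one of 6 arrays (0.50 to 0.68). It was also lost with the control level as a covariate (0.59). The 3' to 5' Gapdh ratio did not overlap either, at 1.403 to 1.536 in LPS and 1.623 to 2.005 in sham mice, and its part was not tested. Psmb9 had 628, 504, 449 and 600 in LPS mice, against 340, 288, 354 and 463 in sham mice. Replicate 3 of the LPS mice lay inside the sham range, and the change of 0.56 did not pass (limma adjusted p = 0.129). Psme1 (0.31), Psmb8 (0.29) and Psmb10 (0.01) did not pass either. At 1 day the 4 immunoproteasome genes were between -0.03 and 0.10. No gene of the interferon and class I list was called at 2 hours.

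Whether the changes depended on time, model or tissue was tested directly. Over the 4 times the change differed for 6 of 43 members in burn blood, where 14.1% of all genes did, for 6 in trauma-hemorrhage blood (9.23%), for 15 in burn spleen (45.1%) and for 5 in trauma-hemorrhage spleen (8.28%). Psmb9 was called in all 4 of these (limma adjusted p = 0.000202, 0.000143, 6.84e-08 and 0.0174), and Psmb8 in all but burn blood (limma adjusted p = 0.00568 in trauma-hemorrhage blood, 0.0467 in burn spleen and 0.0285 in trauma-hemorrhage spleen). Without the high-control arrays, which leaves 3 times in trauma-hemorrhage blood, Psmb9 was again called in all 4 (limma adjusted p = 1.12e-05, 0.0021, 0.00029 and 0.000668), and Psmb8 in trauma-hemorrhage blood and spleen (limma adjusted p = 0.0292 and 0.000467) but not in burn spleen (limma adjusted p = 0.559). After LPS no member differed between the 2 times, where 0.23% of all genes did.

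Between the models, in blood at 2 hours, 1 member differed (1.1% of all genes). It was Psmb9, at -0.25 after burn and 1.08 after trauma-hemorrhage, a difference of -1.33 (SE 0.33, limma adjusted p = 0.0232). In blood at 1 day 13 of 43 members differed (15.9% of all genes), 10 with the higher change after burn (7.31%) and 3 with the lower (8.57%). Psmd6 was at 1.16 after burn and -0.73 after trauma-hemorrhage, a difference of 1.88 (SE 0.36, limma adjusted p = 9.68e-05), and Psmd12 at 0.99 and -0.67, a difference of 1.66 (SE 0.29, limma adjusted p = 1.97e-05). Psmd4 (-1.28) and Psme3 (-1.86) differed the other way. In spleen at 1 day 8 of 43 differed (31.4% of all genes), all of them lower after burn (19.4% of all genes, where 12% were higher), including the 4 immunoproteasome genes. Psmb9 was at -1.91 after burn and 0.54 after trauma-hemorrhage, a difference of -2.46 (limma adjusted p = 1.9e-09), and Psmb10 at -1.28 and 0.45, a difference of -1.74 (limma adjusted p = 2.12e-08). With the high-control arrays left out these differences were -2.29 and -1.21, both called (limma adjusted p = 2.67e-07 and 0.00125), and those of Psmb8 and Psme1, -1.19 and -1.03 with all arrays, were -0.51 and -0.61, neither called (limma adjusted p = 0.27 and 0.0729). Each model and tissue was hybridized on days of its own, so day and model cannot be told apart beyond the shams hybridized beside each injured group.

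Between the tissues, 5 members differed 1 day after burn (12.4% of all genes), among them Psma6, at 1.25 in blood and 0.24 in spleen (difference 1.01, limma adjusted p = 0.00438), and Psmc2, at 0.89 and -0.32 (difference 1.21, limma adjusted p = 0.00787). No immunoproteasome gene was among them. Both differences were 0.66 without the high-control arrays and not called (limma adjusted p = 0.33 and 0.562). At 1 day after trauma-hemorrhage 5 differed (5.85% of all genes), with Psmb9 at -0.59 in blood and 0.54 in spleen (difference -1.13, limma adjusted p = 0.0185). At 3 days 7 differed (5.83% of all genes). Psmd7 was at -1.08 in blood and 1.08 in spleen, and Psma1 at -0.61 and 0.70, while Psme4 and Psmd8 were higher in blood. With the high-control arrays left out the differences were -1.95 for Psmd7, -0.54 for Psma1, 0.29 for Psme4 and 0.50 for Psmd8, none called (limma adjusted p between 0.0702 and 0.804). At 7 days 4 differed after trauma-hemorrhage (2.21%), where all injured blood arrays were high-control arrays, and 2 after burn (3.02%).

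In sham mice the median signal of Psme3 in blood was 4.71 times that in spleen. Psmd4 (1.21 times), Psmd8 (1.08 times) and the dim Psmb11 (1.36 times) were also higher in blood, and the other 40 members higher in spleen, by 2.78 times for the dim Psma8, 1.68 times for Psmc3ip and 1.61 times for Psmc5. The 4 immunoproteasome genes had 0.679 to 0.759 times the spleen level in blood, and Psmb5, Psmb6 and Psmb7 0.730 to 0.860 times. For no member did all 32 sham blood arrays lie beyond all 32 sham spleen arrays. Blood and spleen were hybridized on different days, which cannot be told apart from the tissue here.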

How the data were processed

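The deposited values are linear signal intensities of Affymetrix Mouse Genome 430 2.0 arrays, held in 1 table of 144 arrays; per the submitters' processing notes the authors used MAS5 and GCOS 1.4. The injury arrays were scaled to a 2% trimmed mean of 500, as the values show; the scaling of the LPS arrays is not given in the sources used here, so they were fitted apart. Titles of trauma-hemorrhage blood arrays hold the word burn and descriptions of burn spleen arrays name trauma-hemorrhage; blood arrays were grouped by description and spleen arrays by title.

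Of 45101 probe sets 64 were controls, 34945 named 1 gene, 932 several and 9160 none. For each of 18193 genes the probe set with the highest mean was kept, cross-hybridizing types avoided; 18031 symbols matched the RefSeq table. A gene entered the tests if 4 or more arrays showed it over their own median (14651 genes in blood, 13497 in spleen, 11714 for LPS, 15639 over both tissues). Of the 44 members 43 passed in blood and in spleen and 42 for LPS. Changes in log2(value + 32) were tested with limma 3.58.1 (R 4.3.3, trended eBayes, Benjamini-Hochberg over all genes tested), with 1 fit per tissue and 1 over both tissues for differences between them. The 8 hybridization days, 16 arrays each, held 2 arrays of each group per day; LPS arrays had none recorded. The 4 arrays per group limit the precision. Scripts were tested on simulated data.

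The immunoproteasome and constitutive catalytic genes are named throughout, with up to 3 further called members per direction whose arrays do not overlap between groups, and up to 4 genes per pathway list in list order. Other members and Tap1 and B2m were chosen after their values were seen. The members and lists were chosen with earlier results of these data known. The gene lists of neighbouring pathways and cell type markers were read as counts, with no set test. Replicate numbers do not mark shared animals, and same-numbered arrays correlated between -0.467 and 0.526 in their deviations. Alternatives were another pseudocount, no filter, quantile normalization, the mean of probe sets, blocks by replicate number and day and the control level as a covariate. Each replicate number was also left out of all injured (or LPS) or all sham groups of a set at once. The high-control arrays were left out too, a choice made after seeing the data.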

Additional observations from a re-analysis of the deposited data

Results flagged for a closer look

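In 16 of 304 groups of 4 arrays, about the 1 in 20 that chance gives, 1 array of an immunoproteasome, constitutive catalytic or named member lay far from the others. In trauma-hemorrhage blood at 3 days injured replicate 4, a high-control array, was low for Psme1 (3786, others 4856 to 5002) and Psma3 (2314, others 4340 to 4610). At 7 days after trauma-hemorrhage injured replicate 3 was high for Psme3 in blood (65206, others 23772 to 28788) and sham replicate 1 for Psmb8 (3630, others 2947 to 3035). Sham replicate 2 of the 1 day trauma-hemorrhage blood group was high for Psmd5 (1908, others 625 to 776). In burn blood, burned replicate 2 was low for Psmb9 at 2 hours (736, others 1145 to 1169) and for Psmb7 at 7 days (2212, others 4305 to 4420), and sham replicate 3 was high for Psmb10 at 7 days (2452, others 1632 to 1716).

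In burn spleen at 2 hours burned replicate 3 was low for Psmb8 (2262, others 3433 to 3517). Sham replicate 3, a high-control array, was low there for Psmb8 (1536, others 3591 to 3837) and Psme3ip1 (177, others 487 to 518). Sham replicate 4 at 1 day was high for Psme3ip1 (752, others 611 to 631). At 7 days after burn the spleen of burned replicate 3 was low for Psmb8 (2397, others 2944 to 3024) and that of burned replicate 4 for Psmb5 (1246, others 2448 to 2589). In the LPS set at 1 day replicate 4 of the sham mice was low for Psme1 (688, others 811 to 830), and replicate 4 of the LPS mice for Psmb7 (439, others 618 to 639).

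The change of several members differed between the 4 times in limma's moderated F test. In burn blood the adjusted p was 0.000202 for Psmb9, 0.000379 for Psma6, 0.006 for Psmd13 and 0.0333 for Psmd6. In trauma-hemorrhage blood it was 0.000143 for Psmb9, 0.00568 for Psmb8, 0.000591 for Psmd8, 0.00076 for Psmd4 and 0.00631 for Psme3. In burn spleen it was 6.84e-08 for Psmb9, 0.000664 for Psmb10, 0.0467 for Psmb8 and 0.0471 for Psme1. Other members of burn spleen were Psme3ip1 (limma adjusted p = 3.5e-06), Psma1 (0.000416), Psme3 (0.00179), Psmb5 (0.00589), Psmc3ip (0.00759), Psma5 (0.00762) and Psmc6 (0.0371). In trauma-hemorrhage spleen it was 0.0174 for Psmb9, 0.0285 for Psmb8, 0.0178 for Psma1 and 0.00942 for Psmd5. Without the high-control arrays Psmb10, Psmb8, Psme1, Psma1, Psmb5, Psmc3ip and Psma5 no longer passed in burn spleen, nor did Psmd8 and Psme3 in trauma-hemorrhage blood, where the 7 day groups drop out.

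Burn and trauma-hemorrhage differed, as burn change minus trauma-hemorrhage change, at Psmb9 in blood at 2 hours (-1.33). In blood at 1 day the differences were 1.88 for Psmd6, 1.35 for Psmd13, 1.17 for Psma6, 0.77 for Psmb6, -1.14 for Psmb9, -1.28 for Psmd4 and -1.86 for Psme3 (limma adjusted p between 9.68e-05 and 0.0409). In spleen at 1 day, where 3 burned arrays were high-control arrays, they were -2.46 for Psmb9, -1.74 for Psmb10, -1.19 for Psmb8, -1.03 for Psme1, -1.29 for Psme3ip1, -1.05 for Psmb5 and -0.81 for Psma5 (limma adjusted p between 1.9e-09 and 0.0427). Without those arrays Psmb9 (-2.29), Psmb10 (-1.21) and Psme3ip1 (-1.23) still passed, and Psmb8 (-0.51), Psme1 (-0.61), Psmb5 (-0.11) and Psma5 (-0.50) did not.

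Blood and spleen differed, as blood change minus spleen change, 1 day after burn at Psma6 (1.01) and Psmd13 (0.90), and 7 days after burn at Psmc3ip (-2.37, from -0.96 in blood and 1.41 in spleen). At 1 day after trauma-hemorrhage the differences were -1.13 for Psmb9, 1.45 for Psmd4 and -1.20 for Psmd5, and at 3 days -1.30 for Psma1, -1.38 for Psmb2, -2.16 for Psmd7 and 0.75 for Psmd8 (limma adjusted p between 0.000573 and 0.0472). With the high-control arrays left out none of the differences named 1 day after burn and 3 days after trauma-hemorrhage passed in limma (0.66 for Psma6, 0.59 for Psmd13, -0.54 for Psma1, -1.03 for Psmb2, -1.95 for Psmd7 and 0.50 for Psmd8).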

How the results depend on the processing

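Of 182 results of named genes 74 were called. All 74 held their call with a pseudocount of 100, all 73 that could be fitted with the hybridization day as a block, 67 with a pseudocount of 1 or no filter, 55 with quantile normalization or the mean of probe sets, 52 with the control level as a covariate and 49 of 70 without the high-control arrays. Leaving out 1 replicate number from all injured (or LPS) or all sham groups of a set at once kept 30 calls in every case. It ended 44 in at least 1 case.
With the replicate number as a block, which does not pair the animals, 73 of 74 calls held; Psmd8 in trauma-hemorrhage blood at 1 day was lost (0.44, limma adjusted p = 0.0528), and burn spleen at 2 hours had 2 members called.
Counts of members called moved as follows, and the cause was not tested. The share of all genes called under each setting is not given here, so these counts are not read as particular to the members. With the mean of probe sets trauma-hemorrhage blood had 1 at 2 hours and 11 at 1 day. With the covariate trauma-hemorrhage blood had 2 at 1 day, 4 at 3 days and 0 at 7 days, trauma-hemorrhage spleen 1 at 2 hours, 12 at 3 days and 8 at 7 days, and LPS 0 at 2 hours. Without the high-control arrays trauma-hemorrhage blood had 0 at 3 days, burn spleen 0 at 2 hours, and trauma-hemorrhage spleen 1 at 2 hours and 18 at 3 days, where no array of the groups themselves was removed; at 7 days trauma-hemorrhage blood had no array left. Quantile normalization gave 3 in burn spleen at 2 hours and a pseudocount of 1 gave 1 in trauma-hemorrhage blood at 7 days. Leaving out 1 replicate number in the way given above left 9 to 15 in burn blood at 1 day. Trauma-hemorrhage blood then had 1 to 3, 3 to 8, 2 to 14 and 1 to 6 over the 4 times. Burn spleen had 0 to 5, 12 to 19 and 3 to 11 at 2 hours, 1 day and 7 days. Trauma-hemorrhage spleen had 2 to 8 and 0 to 10 at 3 and 7 days, and LPS 0 to 1 at 2 hours.
The sign turned for 6 called results. Without the high-control arrays Psme3 was at -0.0598 in trauma-hemorrhage blood at 3 days, and Psmb5 at 0.0412 and Psme3 at 0.35 in burn spleen at 1 day. In that spleen comparison Psmc6 was at -0.27 with the mean of probe sets and Psma4 at 0.0612 after quantile normalization. Psmd4 in trauma-hemorrhage blood at 7 days was at -0.14 with the covariate. Psmb6, which was not called in burn spleen at 1 day (-0.02), was at 0.34 after quantile normalization and 0.44 with the covariate.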
